A study of Mus musculus with 6 samples.

Results

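Bmp4, Sfrp1, Pdgfa and Sox4 are 4 developmental regulator genes whose expression was measured in primary mouse embryonic fibroblasts (MEFs) of 2 genotypes, Bahd1-KO and Bahd1-WT, with 3 arrays each. They were chosen by name from the 491 transcript clusters that the authors list as different between these genotypes, out of 23332 clusters on the array. The choice used the same arrays and the same contrast, so the difference of each gene is given as a description, with no test. The Bahd1-KO cells lack Bahd1, which encodes a protein that promotes heterochromatin and gene repression, and the Bahd1-WT cells are wild-type. All embryos came from crosses of heterozygous C57BL/6 mice at stage E13.5. The whole body without the head was digested for each embryo separately, so a culture could hold cells of several tissues, and it was thawed and passaged once before RNA was taken. One Mouse Exon 1.0 ST array was hybridised per culture, and values are log2 expression levels made by the authors with RMA, a method that corrects background, normalises arrays and combines the probes of a gene.

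The 4 genes act at different steps of the signals that pattern embryonic mesenchyme. BMP4 is a secreted ligand of the TGF-beta superfamily that binds serine/threonine kinase receptors and activates Smad proteins, and PDGFA is a secreted ligand of the tyrosine kinase receptor PDGFRA, which mesenchymal cells carry on their surface. SFRP1 is a secreted protein with a frizzled-type cysteine-rich domain that binds Wnt ligands and can keep them from their receptors. SOX4 is a transcription factor of the SoxC group, with an HMG box that binds DNA, and is best known from progenitor cells. Such ligands and antagonists set the limits of each other's range in limb buds, skin, lung and other organs that form by exchange between epithelium and mesenchyme.

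The promoters are shown because Bmp4 and Pdgfa were higher and Sox4 was lower in Bahd1-KO MEFs, and because SP1 and the oestrogen receptors are among the transcription factors that the study considered as partners of BAHD1. RefSeq sequences of build GRCm38.p6, from 250 bases before to 50 bases after an annotated start, were matched for 3 of the 4 genes, and Sfrp1 had no entry. They are written 5′ to 3′ on the strand of the gene, with GC boxes, the letters GGGCGG or their reverse complement to which SP1 is known to bind, in capitals. The Bmp4 promoter is at chr14:46390620-46390919 on the minus strand. Pdgfa has 2 entries on the minus strand, the first at chr5:138994232-138994531 and the second at chr5:138994895-138995194. The Sox4 promoter is at chr13:28953650-28953949 on the minus strand.
Bmp4: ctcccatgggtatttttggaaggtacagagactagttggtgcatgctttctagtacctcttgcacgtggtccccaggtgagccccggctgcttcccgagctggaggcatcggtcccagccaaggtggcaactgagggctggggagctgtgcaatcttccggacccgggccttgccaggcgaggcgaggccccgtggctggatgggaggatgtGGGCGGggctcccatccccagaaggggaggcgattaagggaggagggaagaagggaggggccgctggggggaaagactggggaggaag
Pdgfa, first: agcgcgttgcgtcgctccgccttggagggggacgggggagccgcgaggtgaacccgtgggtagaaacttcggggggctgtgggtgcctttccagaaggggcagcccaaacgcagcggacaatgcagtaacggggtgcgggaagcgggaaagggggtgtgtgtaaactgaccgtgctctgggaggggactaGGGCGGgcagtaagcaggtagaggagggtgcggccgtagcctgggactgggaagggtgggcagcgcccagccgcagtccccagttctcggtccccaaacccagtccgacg
Pdgfa, second: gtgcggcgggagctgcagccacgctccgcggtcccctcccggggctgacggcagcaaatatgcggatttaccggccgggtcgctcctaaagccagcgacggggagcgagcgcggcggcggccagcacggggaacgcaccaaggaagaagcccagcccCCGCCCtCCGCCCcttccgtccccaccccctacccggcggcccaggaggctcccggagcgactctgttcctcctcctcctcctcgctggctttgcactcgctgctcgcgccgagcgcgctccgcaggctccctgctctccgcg
Sox4: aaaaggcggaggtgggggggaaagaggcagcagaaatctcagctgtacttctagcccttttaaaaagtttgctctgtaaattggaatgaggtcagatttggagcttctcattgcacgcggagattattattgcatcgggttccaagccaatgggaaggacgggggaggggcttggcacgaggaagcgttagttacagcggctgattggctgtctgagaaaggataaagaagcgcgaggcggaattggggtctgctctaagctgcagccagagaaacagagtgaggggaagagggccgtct
Bmp4 has 1 GC box, which begins 38 bases before the start. The first Pdgfa promoter also has 1, at 60 bases before the start, and the second has 2, at 93 and 86 bases before it. No GC box was found in the 300 bases of Sox4. Of 32851 promoters of the same length, 35.7% hold a GC box on either strand. The core of the oestrogen response element, GGTCA on either strand, was found in the first Pdgfa promoter and in that of Sox4, and is present in 40.5% of all promoters. None of the 4 sequences has a TATA box (TATAAA on either strand), which 13.6% of all promoters hold. No overlap between matches of different motifs was removed. The share of G and C was 64% for Bmp4, 67% and 73.3% for Pdgfa and 52% for Sox4, with a median of 52.7% over all promoters. These matches describe the letters of the windows and say nothing of binding.

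The 6 arrays were alike in their overall signal, with medians between 5.01 and 5.06 on the log2 scale and a Pearson's r across clusters between 0.9838 and 0.9896 for any pair. Their number limits the precision. In limma's array weights, which are lower for arrays that deviate more from the fit, Bahd1-WT array 3 had 0.544 and the others 0.893 to 1.48. Further, 3 Y-linked genes (Ddx3y, Eif2s3y and Kdm5d) had a mean log2 level of 7.03 to 7.19 in Bahd1-KO arrays 2 and 3 and in Bahd1-WT array 2, and of 2.36 to 2.38 in the remaining 3. Y-linked signal was thus present in unequal numbers of cultures per genotype. The 3 Y-linked genes are themselves among the listed clusters, so that list also holds differences that follow this signal. Only the 491 listed clusters carry gene names in the files used here. Bahd1 itself is not among them, so the deletion could not be checked on these arrays. Of 12 fibroblast markers, Pdgfra and Lum are named and both were lower in Bahd1-KO MEFs. The label of the cells could not be checked with the other 10, Col1a1, Col3a1 and Vim among them. In limma, 0 of 23332 clusters were called higher (0%) and 0 lower (0%) at an adjusted p under 0.05, while 2425 had an unadjusted p under 0.05.

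Bmp4, the BMP ligand, was higher in MEFs without Bahd1, and of the 4 genes it varied most between embryos of the same genotype. Its log2 level was 6.94, 6.65 and 7.01 in Bahd1-KO arrays 1, 2 and 3 and 6.42, 6.19 and 6.60 in Bahd1-WT arrays 1, 2 and 3. The genotypes did not overlap, but the lowest Bahd1-KO array lay only 0.05 above the highest Bahd1-WT array, and array 2 was the lowest of its genotype in both. The mean of Bmp4 was 6.87 ± 0.19 (SD, n = 3) without Bahd1, against 6.40 ± 0.21 (SD, n = 3) in the wild-type. The log2 difference of 0.46 (limma's standard error 0.15), a 1.38-fold higher level, was 2.31 times the pooled SD within genotypes, which was 0.20. The 83 probes of the Bmp4 cluster (NM_007554) cover chr14:47003208-47022654 on the minus strand, in a genome build that the sources used here do not name.

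Pdgfa, the PDGF ligand, was higher in Bahd1-KO MEFs, with closely spaced values in that genotype. Its log2 level was 7.99, 7.89 and 7.91 in Bahd1-KO arrays 1, 2 and 3 and 7.44, 7.68 and 7.53 in Bahd1-WT arrays 1, 2 and 3. Every Bahd1-KO array lay above every Bahd1-WT array, with 0.21 between the nearest of them, and Bahd1-WT array 2 was the highest of its genotype. The mean of Pdgfa was 7.93 ± 0.05 (SD, n = 3) without Bahd1, against 7.55 ± 0.12 (SD, n = 3) in the wild-type. The log2 difference was 0.38 (standard error 0.09), or 1.30-fold, which is 4.04 times the pooled SD of 0.09. The cluster (NM_008808, 103 probes) lies at chr5:139414177-139473581 on the minus strand in the coordinates of the files.

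Sfrp1, the Wnt antagonist, had the tightest replicates of the 4 genes relative to its difference between genotypes. Its log2 level was 9.28, 9.39 and 9.46 in Bahd1-KO arrays 1, 2 and 3 and 8.89, 9.02 and 8.93 in Bahd1-WT arrays 1, 2 and 3. The genotypes were apart by 0.26, more than the range of 0.18 within Bahd1-KO and of 0.13 within Bahd1-WT. The mean of Sfrp1 was 9.38 ± 0.09 (SD, n = 3) without Bahd1, against 8.95 ± 0.07 (SD, n = 3) in the wild-type. This is a log2 difference of 0.43 (standard error 0.08), or 1.35-fold, and 5.43 times the pooled SD of 0.08. The cluster (NM_013834, 79 probes) lies at chr8:24521799-24560094 on the plus strand in the coordinates of the files.

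Sox4, the SoxC transcription factor gene, was lower in Bahd1-KO MEFs and is the only one of the 4 with this direction. Its log2 level was 9.01, 9.14 and 8.97 in Bahd1-KO arrays 1, 2 and 3 and 9.34, 9.33 and 9.52 in Bahd1-WT arrays 1, 2 and 3. The highest Bahd1-KO array was 0.19 below the lowest Bahd1-WT array, and Bahd1-WT array 3, which had the lowest array weight, was the highest of all. Without that array the log2 difference of Sox4 was -0.29 (standard error 0.09). The mean of Sox4 was 9.04 ± 0.09 (SD, n = 3) without Bahd1, against 9.40 ± 0.11 (SD, n = 3) in the wild-type. The log2 difference was -0.36 (standard error 0.09), a 1.28-fold lower level, and its size was 3.62 times the pooled SD of 0.10. The cluster (NM_009238, 48 probes) lies at chr13:29040795-29045566 on the minus strand in the coordinates of the files.

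**Figure D1:**
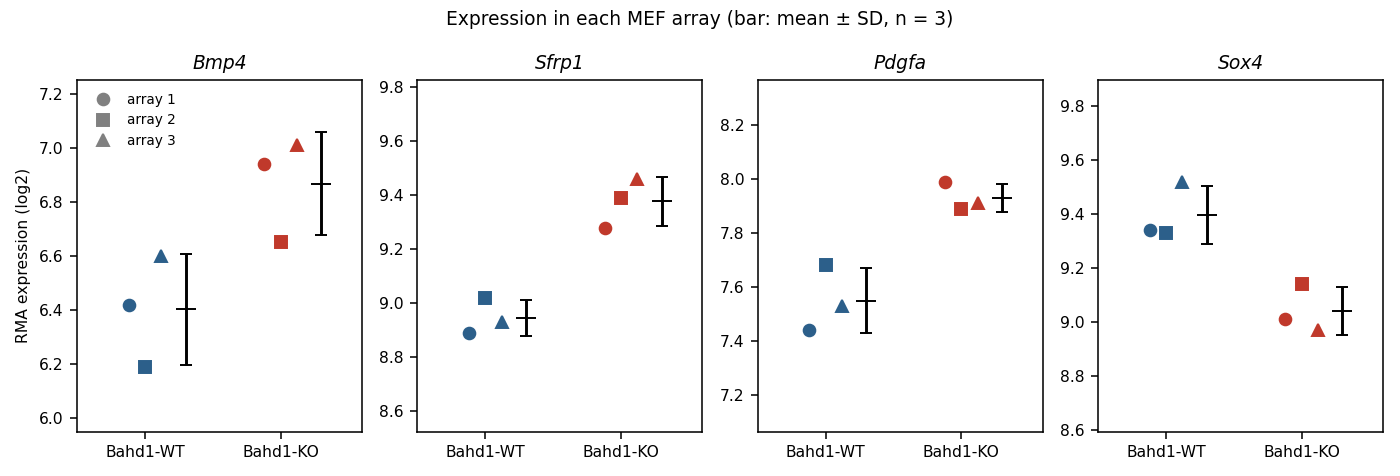
RMA expression on the log2 scale (y axis) of Bmp4, Sfrp1, Pdgfa and Sox4 in the 3 Bahd1-WT arrays (blue) and the 3 Bahd1-KO arrays (red), each panel over the same span of log2 units. Symbols stand for arrays 1, 2 and 3 of a genotype and bars for mean ± SD, and the genotypes come closest for Bmp4, at 0.05 log2 units.

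All 4 genes had genotypes that did not overlap, which 11.4% of all clusters showed with Bahd1-KO higher and 6.64% with Bahd1-KO lower. After a second quantile normalisation these shares were 9.51% and 8.28%. Since the genes were chosen from a table of differences on these arrays, nothing is read from that count. Their differences were among the smaller ones of the table for their direction. They were larger than those of most clusters on the array, which the choice from that table favoured. Among the 354 listed clusters with a higher mean in Bahd1-KO MEFs, Bmp4 ranked 228th by size of the difference, Sfrp1 249th and Pdgfa 291st, and Sox4 ranked 100th of the 137 with a lower mean. Over all 23332 clusters, the size of the difference exceeded that of 91.2% of clusters for Bmp4, 89.7% for Sfrp1, 87.2% for Pdgfa and 85.9% for Sox4. The spread within genotypes differed more between the genes than the differences did. The pooled SD of Bmp4 was above that of 82.1% of the clusters brighter than the median, whereas that of Sfrp1 was above 28%, that of Pdgfa above 39% and that of Sox4 above 41.9%.

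**Figure D2:**
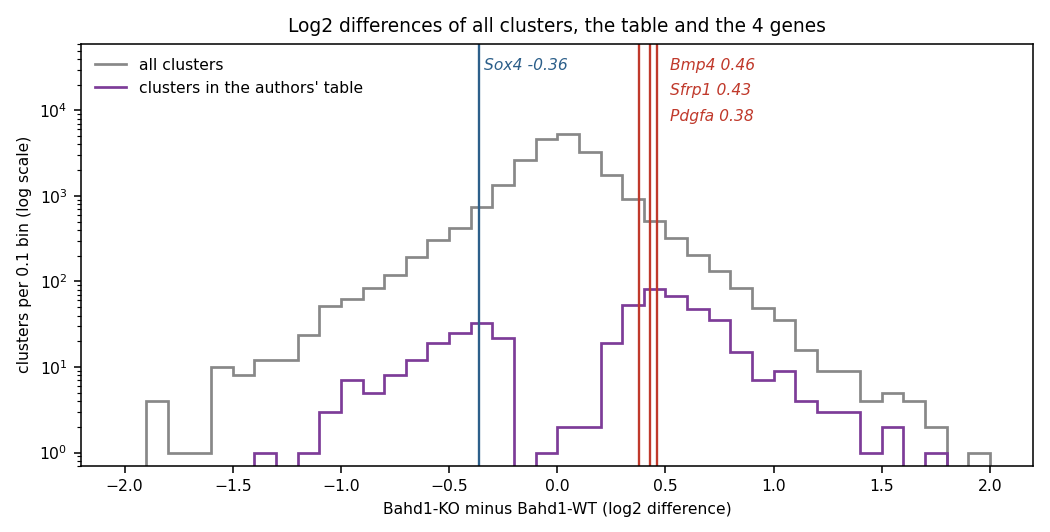
Number of clusters per 0.1-wide bin (y axis, log scale) against the log2 difference between Bahd1-KO and Bahd1-WT MEFs (x axis), for all clusters (grey) and for those in the authors' table (purple). Vertical lines mark Sox4 at -0.36, Pdgfa at 0.38, Sfrp1 at 0.43 and Bmp4 at 0.46, all on the flanks of the distribution, and 5 clusters beyond 2 log2 units are not drawn.

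Within genotypes the 4 genes showed no shared order of arrays. Bmp4 was 0.22 below its genotype mean in array 2 of both genotypes, where Sfrp1 was 0.01 and 0.07 above and Pdgfa deviated by -0.04 in Bahd1-KO and by 0.13 in Bahd1-WT. Over the 6 deviations from genotype means, Pearson's r was -0.26 for Bmp4 with Sfrp1, -0.34 for Bmp4 with Pdgfa, 0.28 for Sfrp1 with Pdgfa and 0.05 for Bmp4 with Sox4. With Sox4, r was -0.19 for Sfrp1 and -0.23 for Pdgfa. These values describe 6 arrays and are too weak to show a relation.

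The Y-linked signal was set beside the members, since 2 Bahd1-KO arrays and 1 Bahd1-WT array carried it. Within those arrays the log2 difference was 0.65 for Bmp4, 0.40 for Sfrp1, 0.22 for Pdgfa and -0.27 for Sox4. Within the arrays without it, 1 of Bahd1-KO and 2 of Bahd1-WT, it was 0.43 for Bmp4, 0.37 for Sfrp1, 0.50 for Pdgfa and -0.42 for Sox4. The genotypes of each gene did not overlap, so the direction had to be the same in both sets and is no check. The size for Pdgfa differed most. The part of the Y-linked signal in the differences was not tested further.

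Other genes of the same pathways were sought among the named clusters with 13 lists from textbook knowledge, of 232 genes in all. These lists were written with earlier results of these data known, so the share that the authors list is only a description. Apart from the 4 members, 12 of 228 genes (5.26%) are in the authors' table, 8 higher and 4 lower in Bahd1-KO MEFs, with a median log2 difference of 0.43. The table holds 2.1% of all clusters, 1.51% higher and 0.596% lower, but a cluster need not be an annotated gene and the shares are not on the same base. The 12 were also listed for a difference on these arrays, so their values are descriptions. The remaining genes of the lists could not be looked up, since the files name only listed clusters.

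In the PDGF pathway, the ligand and its receptor lay on opposite sides. Of 7 ligands and receptors, the table holds Pdgfa, which was higher, and Pdgfra, which encodes the receptor that binds PDGFA and was lower. The log2 level of Pdgfra was 8.36, 8.50 and 8.13 in Bahd1-KO arrays 1, 2 and 3 and 8.74, 8.80 and 9.10 in Bahd1-WT arrays 1, 2 and 3. The genotypes did not overlap, and the mean was 8.33 ± 0.19 (SD, n = 3) without Bahd1, against 8.88 ± 0.19 (SD, n = 3) in the wild-type. The log2 difference was -0.55 (standard error 0.14).

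Among BMP and TGF-beta genes, Bmp4 was joined by Inhba and Bmper on the higher side. Inhba, which encodes the subunit of activin A, was higher by 0.49 log2 units (standard error 0.12), and Inha, the alpha subunit of inhibin, had a log2 difference of -0.49 (standard error 0.18) with overlapping genotypes. These 3 are the only ones of 22 ligands in the table. Bmper, the gene of an extracellular BMP-binding protein, was the only 1 of 15 antagonists and was higher by 0.57 log2 units (standard error 0.17). Smurf1, a ubiquitin ligase that acts on Smad proteins, was the only 1 of 22 receptors and signal transducers and was higher by 0.34 log2 units (standard error 0.09).

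Of 12 target genes of BMP signalling, only Id2 is in the table, and it lay opposite to Bmp4. Id2 encodes an inhibitor of basic helix-loop-helix factors. Its log2 level was 8.98, 9.00 and 8.86 in Bahd1-KO arrays 1, 2 and 3 and 9.23, 9.31 and 9.54 in Bahd1-WT arrays 1, 2 and 3. All Bahd1-KO arrays were below all Bahd1-WT arrays, with a log2 difference of -0.42 (standard error 0.10).

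The secreted Wnt antagonists in the table also went in opposite directions. Of 11, Sfrp1 was higher and Sfrp4, a related gene of the same family, was lower by mean, with a log2 difference of -0.65 (standard error 0.24). Sfrp4 was at 6.62, 6.11 and 5.98 in Bahd1-KO arrays 1, 2 and 3 and at 6.49, 7.06 and 7.10 in Bahd1-WT arrays 1, 2 and 3, so Bahd1-KO array 1 lay above Bahd1-WT array 1 and the genotypes overlapped. The table holds 0 of 23 Wnt ligands and R-spondins and 0 of 29 receptors and signal transducers. Of 12 target genes of Wnt signalling it holds Myc, which many other signals regulate as well, higher by 0.61 log2 units (standard error 0.14).

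Sox4 was the only 1 of 20 SOX genes in the table. Of the lists for other morphogens and growth factors, FGF ligands and receptors had 1 of 27 in the table, Fgf7, a ligand that mesenchyme makes for epithelium, which was higher by 0.39 log2 units (standard error 0.12). VEGF ligands and receptors had 2 of 10, the receptor Flt1, higher by 0.56 log2 units (standard error 0.22) with overlapping genotypes, and the co-receptor Nrp1, higher by 0.47 log2 units (standard error 0.15). Hedgehog and Notch signalling had 1 of 22, the receptor Notch1, higher by 0.54 log2 units (standard error 0.14).

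**Figure D3:**
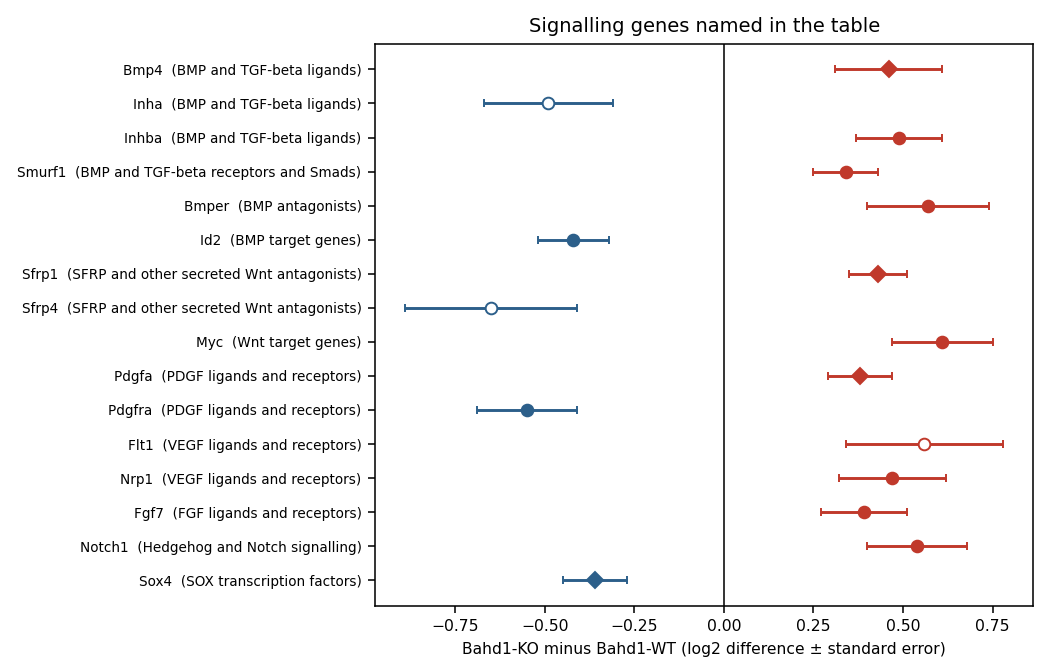
Log2 difference between Bahd1-KO and Bahd1-WT MEFs (x axis, ± limma's standard error) of the 16 genes of the textbook lists that the authors' table names, with their list in brackets. Diamonds are the 4 members and circles the other 12 genes, open symbols mark the 3 genes with overlapping genotypes (Inha, Sfrp4 and Flt1), and 11 of the 16 lie to the right of 0.

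**Figure D4:**
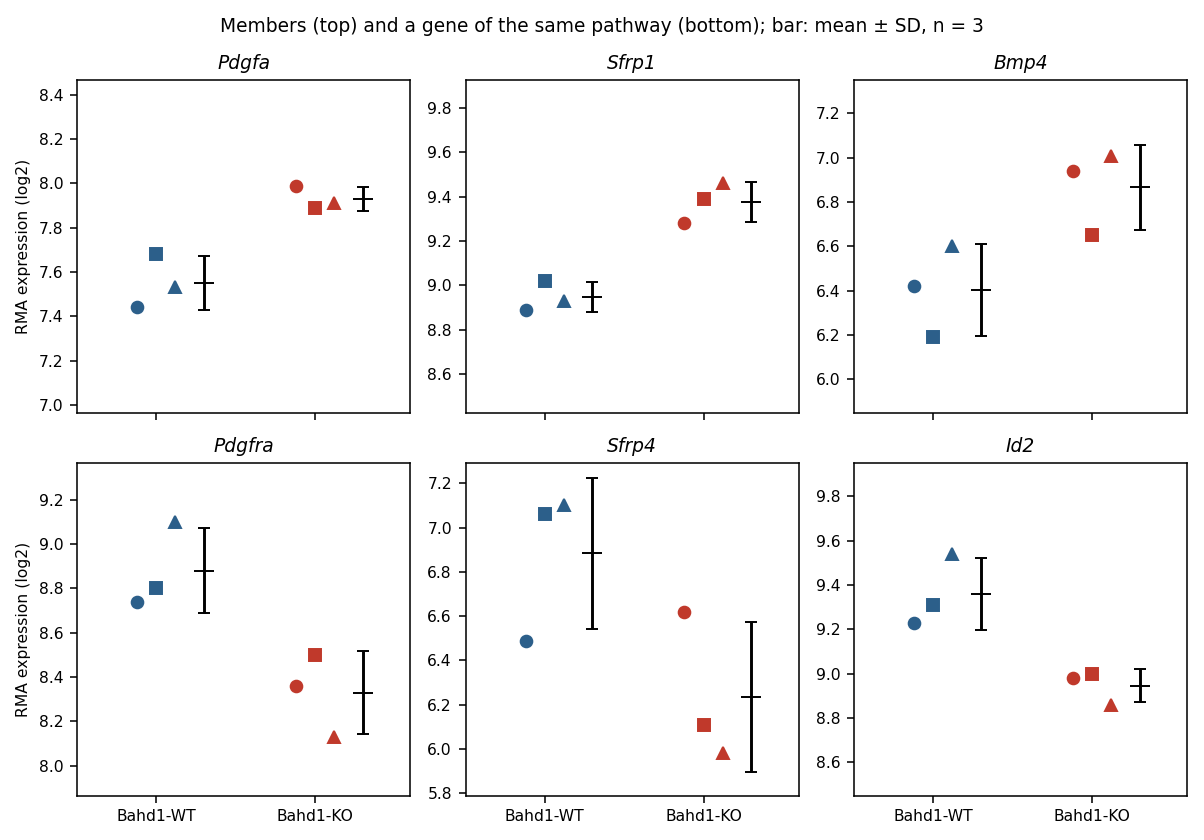
RMA expression on the log2 scale (y axis) of Pdgfa, Sfrp1 and Bmp4 (top) and of Pdgfra, Sfrp4 and Id2 (bottom) in each Bahd1-WT (blue) and Bahd1-KO (red) array, with mean ± SD and symbols for arrays 1 (circle), 2 (square) and 3 (triangle). The top genes are higher in Bahd1-KO MEFs, by 0.38, 0.43 and 0.46, and the bottom genes are lower by mean, with overlap between genotypes for Sfrp4.

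Bmp4 and Sfrp1 also belong to a group of 16 genes for the morphogenesis of branching structures that the study drew from its higher genes on these arrays. All 16 were therefore higher by construction. Of them, 14 had no overlap between genotypes, as had 378 of the 491 listed clusters, which were listed for a difference on these arrays, and nothing is read from that count. The median log2 difference was 0.59, against 0.53 for all 352 genes that the table gives as higher. Bmp4 and Sfrp1 were below that median. Il6 and Adm, a cytokine and a vasodilator peptide, had the widest differences of the group, 1.24 (standard error 0.23) and 1.19 (standard error 0.33).

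Genes whose pattern over the 6 arrays was most like that of each member were then listed among the 487 other named genes. The genotypes form separate sets of arrays and the named genes were picked for differing between them, so r over 6 arrays mostly carries that difference. The r of deviations from genotype means is given beside it, and both are descriptions. Hmga2, which encodes an architectural chromatin protein of embryonic cells, was closest to Bmp4 with an r of 0.974 and 0.94 for the deviations. Qtrtd1, a gene of tRNA modification, followed with 0.965, and Hnrnph2, which encodes an RNA-binding protein, with 0.939. Among the genes closest to Sfrp1 were Mobkl2a, of the MOB kinase activator family, with an r of 0.995 and 0.958 for the deviations, and Serpinb2, a protease inhibitor, with 0.993. Pdgfa was followed most closely by Npnt, an extracellular matrix ligand of integrins, with an r of 0.984 and 0.936 for the deviations, then by Asphd2 with 0.982 and by the Ras regulator gene Rasa4 with 0.981.

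For Sox4, genes of the other members' pathways were among the closest. The first was Mcts1, which encodes a translation factor, with an r of 0.99 and 0.939 for the deviations. Pdgfra came second with 0.985 and 0.947 for the deviations, and then Id2 with 0.978 and 0.877. In Sox4, Pdgfra and Id2 alike, Bahd1-WT array 3 had the highest level and Bahd1-KO array 3 the lowest. An r over 0.9 was reached by 9 named genes for Bmp4, 146 for Sfrp1, 75 for Pdgfa and 32 for Sox4. Over all clusters this share was 0.939% for Bmp4, 2.58% for Sfrp1, 2.04% for Pdgfa and 1.44% for Sox4.

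**Figure D5:**
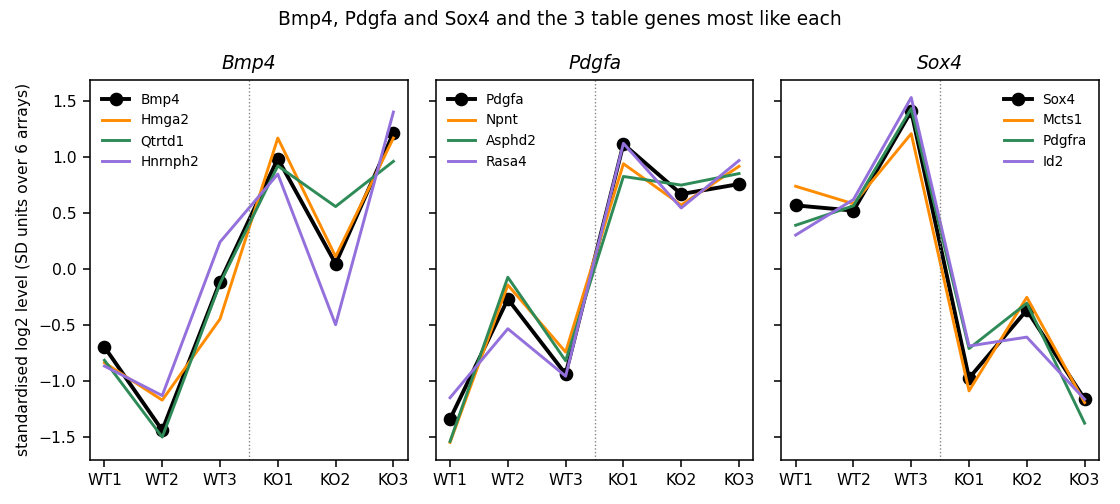
Log2 level of Bmp4, Pdgfa and Sox4 (black) and of the 3 named genes most like each (colours) in the 6 arrays (x axis), each gene centred on its mean and divided by its SD over the arrays (y axis, SD units). The lines run closely together for Sox4 and Mcts1, with an r of 0.99, and less closely for Bmp4 and Hnrnph2, with an r of 0.939, and the order of arrays within a genotype has no meaning.

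Markers of other cell types are also in the authors' table, and were thus listed for a difference on the same arrays. In bulk cultures, fewer cells of a type and less RNA per cell cannot be told apart. The table names 2 of 7 epithelial markers, Krt18 and Krt19, whose summed level on the log2 scale was 10.13 to 10.41 in Bahd1-KO and 9.09 to 9.38 in Bahd1-WT MEFs. It names 3 of 6 muscle markers, Des, Acta1 and Tnnt2, with a summed level of 9.45 to 9.63 against 8.87 to 8.98, and 2 of 6 endothelial markers, Emcn and Flt1, with 8.15 to 8.55 against 7.43 to 7.95. Flt1 by itself overlapped between genotypes, at 7.74 in Bahd1-KO array 1 and 7.76 in Bahd1-WT array 1. Of 5 macrophage markers only Csf1r is named, at 6.28 to 6.74 against 6.05 to 6.16. The fibroblast markers Pdgfra and Lum together were at 8.79 to 9.14 in Bahd1-KO and 9.40 to 9.87 in Bahd1-WT MEFs. No neural, cartilage or erythroid marker is named, and markers that are not named could not be looked up. The part of such cells in the levels of Bmp4, Sfrp1, Pdgfa and Sox4 was not tested.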

How the data were processed

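Expression was measured in MEFs of 3 Bahd1-KO and 3 Bahd1-WT embryos. The authors derived the deposited log2 values of 23332 transcript clusters with RMA at the gene core level, and deposited a comparison table of 491 clusters with the same log2 values, gene symbols, fold changes and p-values from an LPE test. The sign of the deposited median difference was used only to count listed clusters as higher or lower. By that sign 352 were higher and 139 lower, against 354 and 137 by the means used for ranks. The deposited p-values and the sizes of the fold changes were not used. The RMA software version and the genome build are not given in the sources used here. Differences are Bahd1-KO minus Bahd1-WT means, with standard errors from limma version 3.58.1 in R 4.3.3, fitted to all clusters with lmFit and eBayes, p-values being adjusted across the whole array by the Benjamini-Hochberg procedure. No filter was applied, and the script was tested on simulated data. The LPE test was not rerun, since it chose the genes. Genes, lists and tests were chosen with earlier results of these data known. The named genes are the 4 members, the 3 listed genes most like each by Pearson's r (1 of those for Sfrp1 is not reported here), the listed genes of each pathway list and Ddx3y, Eif2s3y and Kdm5d. Il6, Adm and the cell type markers follow from lists as well. Symbols of the lists were matched through RefSeq names and synonyms (232 of 232). Alternatives were a second quantile normalisation, centring, array weights, group medians, a replicate block, a Y-linked covariate, each array left out, a trended and robust prior and a filter on brightness. Labels state that embryos were processed separately, so replicates are biological.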

Additional observations from a re-analysis of the deposited data

How the results depend on the processing

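The direction of all 4 genes was the same in every setting tried. For most settings this was fixed beforehand, since the genotypes of each gene did not overlap. Leaving arrays out, weighting them, taking medians or splitting them by Y-linked signal could not reverse it. With each array left out in turn, the log2 difference ran from 0.36 to 0.57 for Bmp4, from 0.39 to 0.48 for Sfrp1, from 0.32 to 0.44 for Pdgfa and from -0.41 to -0.29 for Sox4. Under the other 6 planned settings it ran from 0.42 to 0.53 for Bmp4, from 0.39 to 0.46 for Sfrp1, from 0.34 to 0.38 for Pdgfa and from -0.37 to -0.32 for Sox4, each within 1 replicate SD of the value reported. A comparison within arrays of like Y-linked signal, added after the data were seen, gave 0.22 for Pdgfa with that signal and 0.50 without it. The cause was not tested.

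The replicate number shared by the labels was not seen to pair the samples across all clusters, though 3 arrays per genotype cannot exclude it. Deviations of same-numbered arrays had correlations of -0.000517, 0.0266 and 0.000223, and arrays of number 2 alone correlated best with their own number. With the replicate block the differences were the same by construction (0.46, 0.43, 0.38 and -0.36 for Bmp4, Sfrp1, Pdgfa and Sox4). The standard error was 0.08 for Bmp4, against 0.15 without the block. It was 0.09 against 0.08 for Sfrp1, 0.11 against 0.09 for Pdgfa and 0.11 against 0.09 for Sox4. In that fit limma called 0 clusters, with 2098 at an unadjusted p under 0.05.

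limma called 0 of 23332 clusters in the planned fits over all clusters, leave-one-out fits included (0 to 0), where 1854 to 2692 had an unadjusted p under 0.05. Among the 11666 clusters brighter than the median, fitted on their own, it called 36, of which 29 were higher and 7 lower. There 1981 had an unadjusted p under 0.05. Both the prior of limma and the number of clusters to adjust over differ in that fit, and their part was not tested.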
